A study of Mus musculus with 9 samples.

Results

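Neurexins and neuroligins are cell adhesion proteins that meet across the synaptic cleft. Neurexins sit mainly in the presynaptic membrane, are made from long and short forms that start at separate promoters, and reach many partners through alternative splicing. Neuroligins bind them from the postsynaptic side, where Nlgn1 is known for excitatory synapses, Nlgn2 for inhibitory synapses and Nlgn3 for both. Sensory neurons of the dorsal root ganglia (DRG) send presynaptic terminals into the spinal cord, and their cell bodies carry few synapses, so both families are of interest there as genes of the growing sensory neuron.

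The genes described are Nrxn2, Nrxn3, Nlgn1, Nlgn2 and Nlgn3, found by their symbols among the 55247 genes of the deposited count table. All 5 belonged to the 13200 genes tested, those that reached 100 counts in 1 library or more. The 9 libraries were made from DRGs of mouse embryos at E18.5, with 3 libraries for each of 3 genotypes. WT embryos had neither engineered allele. Isl1Cre/+ embryos had Cre knocked into 1 Isl1 allele, and Isl1Cre/+::Meis2LoxP/LoxP embryos (mutant) had this Cre together with Meis2 alleles whose exon 8 lies between LoxP sites on both copies. The mutant and Isl1Cre/+ groups thus share the Cre allele and the change it makes in Isl1, and recombination takes place only in cells that have expressed Isl1. Meis2 encodes a TALE homeodomain transcription factor, and the study asked which genes depend on it in sensory neurons. Nothing in the labels or methods says whether a library comes from 1 embryo or a pool, or from which litter, so that p-values measure the spread between these libraries. In whole ganglia, fewer cells of a type and less RNA per cell cannot be told apart.

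The libraries held between 23854607 and 29103444 counts. Meis2, the targeted gene, had 1084, 1073 and 1004 counts in mutant libraries, against 2746 to 2919 in WT and 2537 to 2857 in Isl1Cre/+, with no overlap. Isl1 had 6030 to 8182 counts in WT, 4840 to 5719 in Isl1Cre/+ and 4327 to 5738 in the mutant. All 7 sensory neuron markers and all 6 Schwann and satellite glia markers passed the count filter, while none of 7 spinal cord neuron markers did (summed level of 0.647 to 4.4 cpm, the counts divided by the scaled library size and given per 1000000). WT library 1 and mutant library 2 had the lowest rank correlations with the other libraries (medians of 0.981 and 0.979, against 0.991 to 0.995 elsewhere). Y-linked genes reached 177 to 206 cpm in WT libraries 1 and 2 and mutant library 1 and at most 0.038 cpm in the other 6, so the 3 Isl1Cre/+ libraries were all of the latter kind.

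The ends of the coding sequences show how the genes group. Both families close with a short stretch that binds PDZ domains of scaffold proteins, CASK for neurexins and the PSD-95 family for neuroligins. The last 30 coding bases, stop codon included, of the longest coding transcript of each gene (GENCODE M21) are shown with the last 4 codons before the stop in capitals.
Nrxn2: aagaacaaagacaaaGAGTATTACGTCtga
Nrxn3: aaaaacaaggacaagGAGTATTATGTGtaa
Nlgn1: ccccattcacattcaACAACCAGGGTAtag
Nlgn2: ccccatccccactccACCACTCGGGTAtag
Nlgn3: ccccactcacactccACTACCCGTGTAtag
Nrxn2 and Nrxn3 were identical at 24 of these 30 bases. Pairs of neuroligins were identical at 23 or 24 of them, and a neurexin and a neuroligin at 6 to 9. Despite this likeness, the longest identical stretch shared by annotated transcripts of 2 of these genes was 17 to 24 bases over the 10 pairs, against reads of 84 bases before the molecular identifier was taken off. Genes on the opposite strand overlap 6.44% of the exon bases of Nrxn2, 3.48% of those of Nrxn3 and 9.16% of those of Nlgn1, and had 0 to 22 counts. Without a stated strand option, reads there cannot be told apart.

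Counts are raw in what follows, and cpm were scaled by TMM, a normalization that centres the bulk of genes. Changes are log2 fold changes from edgeR's quasi-likelihood test with their standard error (SE). Beside it stands the exact permutation test of mean log2 cpm over libraries (two-sided), which cannot go below p = 0.1 with 3 libraries in each group. A gene was called, by the study's own criterion, at a fold change of at least 1.2 with an unadjusted p under 0.05. In none of the comparisons was any of the 5 genes called, and each had an adjusted p of 1 (Benjamini-Hochberg). This criterion called 0.318% of all tested genes between mutant and WT, 1.67% between mutant and Isl1Cre/+, 1.4% between Isl1Cre/+ and WT, and 0.674% between the mutant and all 6 control libraries. At an unadjusted p under 0.05 without any fold requirement, edgeR called 0 of the 5 genes in each comparison. DESeq2 and limma voom also called 0 at the study's criterion.

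**Figure D1:**
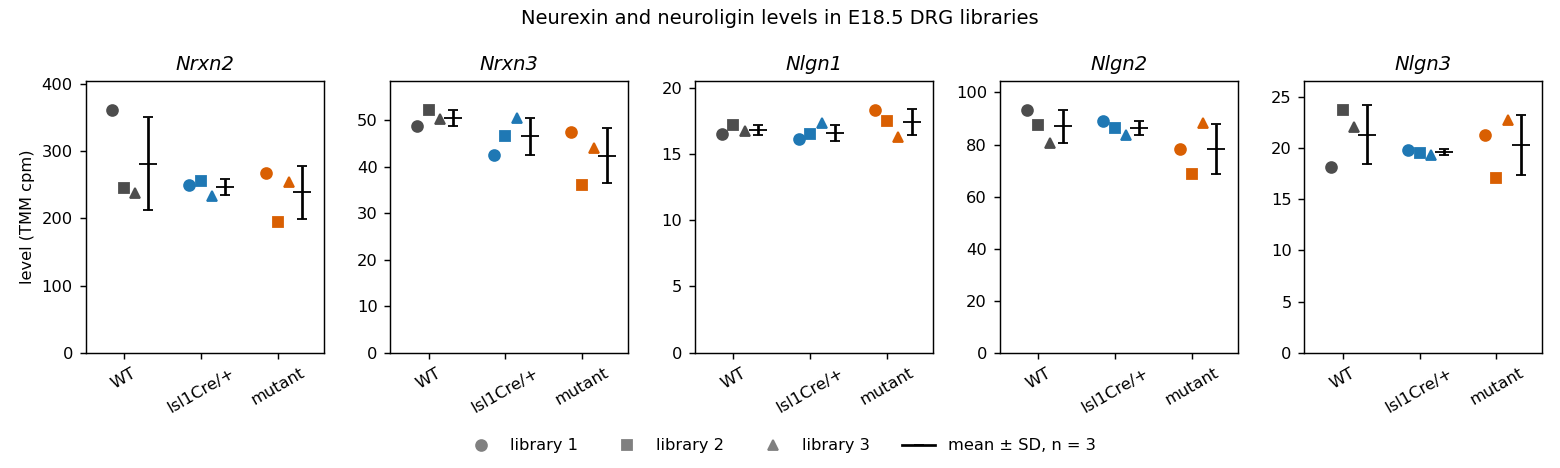
Level of each gene in every library (vertical axis, TMM-scaled cpm from 0) by genotype, with marker shape for the library number and a bar for the mean ± SD of 3 libraries. Nrxn2 stands at 361 cpm in WT library 1 against 194 to 268 cpm elsewhere, and mutant library 2 is the lowest of 9 for each gene except Nlgn1.

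Nrxn2 was the more abundant neurexin described. The gene lies on chromosome 19 (mm10, 6418731 to 6544169, plus strand) and spans 125.4 kb. Counts were 9592, 6923 and 6838 for WT, 7327, 7165 and 6606 for Isl1Cre/+ and 7123, 5108 and 6197 for mutant libraries. These correspond to 361, 245 and 238 cpm, 249, 256 and 233 cpm, and 268, 194 and 254 cpm. WT library 1 stood above all others and mutant library 2 below all others, and the remaining 7 libraries of 3 genotypes lay between 233 and 268 cpm. The group means were 281 ± 69.2, 246 ± 11.9 and 239 ± 39.2 cpm (SD, n = 3).

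Nrxn2 differed by -0.24 on the log2 scale between mutant and WT (SE 0.195, 95% interval -0.69 to 0.22, exact permutation p = 0.6). This value came to -0.02 when WT library 1 was left out, to -0.08 without mutant library 2 and to 0.12 without either of them. Against Isl1Cre/+ it was -0.04 (SE 0.12, 95% interval -0.33 to 0.24, exact permutation p = 0.9), and 0.09 without mutant library 2. Isl1Cre/+ differed from WT by -0.18 (SE 0.153, 95% interval -0.54 to 0.18, exact permutation p = 0.7), which turned to 0.02 without WT library 1 and to 0.04 with the Y-linked level as a covariate. The sign of Nrxn2 in the mutant thus turned without mutant library 2 against Isl1Cre/+ and without both libraries against WT. Against all 6 controls it was -0.14 (SE 0.15) and came to 0.00 without mutant library 2.

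Nrxn3 has the largest locus of the 5 genes, 1612.1 kb on chromosome 12 (88722876 to 90334935, plus strand), with long and short forms from distant starts. WT libraries held 1297, 1475 and 1451 counts (48.8, 52.2 and 50.4 cpm). Isl1Cre/+ libraries held 1251, 1306 and 1431 counts (42.6, 46.7 and 50.5 cpm), and mutant libraries 1261, 946 and 1071 (47.4, 36.0 and 44.0 cpm). The 3 mutant values all lay below the 3 WT values, at the nearest with 47.4 against 48.8 cpm, while Isl1Cre/+ overlapped both. Group means were 50.5 ± 1.69 cpm in WT, 46.6 ± 3.95 cpm in Isl1Cre/+ and 42.4 ± 5.87 cpm in the mutant (SD, n = 3). Groups did not overlap for 2.76% of all tested genes in this comparison.

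Between mutant and WT, Nrxn3 differed by -0.25 (SE 0.114, 95% interval -0.52 to 0.02), and in the exact permutation test by the smallest value that 3 against 3 libraries allow, p = 0.1. Its fold change of 0.841 (95% interval 0.698 to 1.01) met neither the fold requirement nor that on p, and 59 genes had a lower edgeR p. With all 3 genotypes in 1 fit the value was again -0.25, under the required fold, with an unadjusted edgeR p of 0.0439. Leaving out mutant library 1 gave -0.34, which met the study's criterion, and leaving out mutant library 2 gave -0.12. Without WT library 1 and mutant library 2 together it was -0.16. Against Isl1Cre/+ the difference was -0.13 (SE 0.114, 95% interval -0.40 to 0.13, exact permutation p = 0.5), and -0.02 without mutant library 2. Against all 6 controls it was -0.19 (SE 0.0941, 95% interval -0.40 to 0.01, exact permutation p = 0.143), with -0.28, which met the criterion, when mutant library 1 and -0.08 when mutant library 2 was left out. Isl1Cre/+ lay between the other groups, at -0.11 from WT (SE 0.0906, 95% interval -0.32 to 0.11, exact permutation p = 0.3). The sign of Nrxn3 was negative in each fit given here, with a size that depended on which mutant library was kept.

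TALE factors of the Meis family are known to bind DNA at TGACAG, and RefSeq promoters (GRCm38.p6, 250 bases before to 50 after a start) were given for Nrxn3, Nlgn1 and Nlgn2. These 6 letters, read on both strands (CTGTCA on the other), were found in 1 of the 6 promoters of these 3 genes and in 19.2% of 32851 promoters of the table. The promoter that holds them is that of the short Nrxn3 transcripts, at chr12:89812233-89812532 on the plus strand, shown with the match in capitals at 34 bases after the start.
Nrxn3 short form: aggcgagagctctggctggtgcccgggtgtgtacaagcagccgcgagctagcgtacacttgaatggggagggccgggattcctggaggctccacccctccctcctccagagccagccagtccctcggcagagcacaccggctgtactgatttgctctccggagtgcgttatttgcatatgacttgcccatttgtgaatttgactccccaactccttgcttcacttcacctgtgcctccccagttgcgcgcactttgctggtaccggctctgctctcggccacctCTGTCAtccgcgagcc
Counts per gene do not tell the long from the short Nrxn3 transcripts, and no binding was measured.

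Nlgn2, the neuroligin of inhibitory synapses, is the shortest of the 5 loci at 14.7 kb (chromosome 11, 69823122 to 69837784, minus strand), and no other annotated gene overlaps its exons. WT had 2475, 2468 and 2319 counts, or 93.2, 87.4 and 80.6 cpm. Isl1Cre/+ had 2612, 2418 and 2367 counts, or 88.9, 86.4 and 83.5 cpm. The mutant had 2082, 1805 and 2147 counts, or 78.3, 68.6 and 88.1 cpm. Mutant libraries 1 and 2 were the lowest of 9, whereas mutant library 3 lay among the controls. Group means were 87.0 ± 6.3, 86.3 ± 2.71 and 78.3 ± 9.76 cpm (SD, n = 3).

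For Nlgn2 the difference was -0.15 between mutant and WT (SE 0.113, 95% interval -0.41 to 0.11, exact permutation p = 0.3) and -0.14 against Isl1Cre/+ (SE 0.0923, 95% interval -0.36 to 0.08, exact permutation p = 0.3). Over all 6 controls it was -0.15 (SE 0.079, 95% interval -0.32 to 0.03, exact permutation p = 0.143). Without mutant library 2 these 3 values shrank to -0.04, -0.05 and -0.05. Without mutant library 3 they were -0.24, -0.23 and -0.24, all under the required fold. Isl1Cre/+ and WT differed by 0.00 on this scale (SE 0.0719, 95% interval -0.17 to 0.17, exact permutation p = 0.9), so that the interval between the control genotypes lies within the fold of 1.2 in both directions.

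Nlgn1 (chromosome 3, 25426215 to 26332460, minus strand, 906.2 kb) varied least of the 5 over all 9 libraries, with a coefficient of variation of 4.05%. The WT counts of 439, 486 and 481 correspond to 16.5, 17.2 and 16.7 cpm. The Isl1Cre/+ counts of 473, 462 and 490 give 16.1, 16.5 and 17.3 cpm, and the mutant counts of 486, 461 and 398 give 18.3, 17.5 and 16.3 cpm. All 9 libraries fell between 16.1 and 18.3 cpm and the groups overlapped. Within groups this coefficient was 2.08% in WT, 3.62% in Isl1Cre/+, where Nlgn2 and Nlgn3 varied less (3.14% and 1.35%), and 5.61% in the mutant, beside a counting error of Nlgn1 of 4.62%, 4.59% and 4.72%. Nrxn2 in WT, by contrast, varied by 24.6% with a counting error of 1.13%.

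The mutant differed in Nlgn1 from WT by 0.05 (SE 0.0969, 95% interval -0.18 to 0.27, exact permutation p = 0.5), from Isl1Cre/+ by 0.06 (SE 0.0797, 95% interval -0.12 to 0.25, p = 0.4) and from all controls by 0.06 (SE 0.0629, 95% interval -0.08 to 0.19, p = 0.262). The last interval, a fold of 0.943 to 1.14, is the narrowest of the 5 genes for that comparison. Isl1Cre/+ and WT differed by 0.00 (SE 0.0822, 95% interval -0.20 to 0.19, exact permutation p = 0.8).

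Nlgn3 is X-linked (chromosome X, 101299168 to 101325963, plus strand, 26.8 kb), and 41.2% of its exon bases are also annotated, on the same strand, to the transcript Gm21986, which had 5 to 15 counts. Reads there may not have been assigned to Nlgn3, so its level is uncertain. Its WT counts were 481, 670 and 637 (18.1, 23.7 and 22.1 cpm). The Isl1Cre/+ counts were 583, 545 and 548 (19.8, 19.5 and 19.3 cpm), and the mutant counts 567, 449 and 552 (21.3, 17.1 and 22.7 cpm). The 3 Isl1Cre/+ libraries lay within 19.3 to 19.8 cpm, and the other genotypes each spread on both sides of them.

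Nlgn3 in the mutant differed by -0.07 from WT (SE 0.149, 95% interval -0.42 to 0.28, exact permutation p = 0.6), by 0.06 from Isl1Cre/+ (SE 0.111, 95% interval -0.20 to 0.32, p = 0.7) and by -0.01 from all controls (SE 0.109, 95% interval -0.25 to 0.23, p = 0.952). The first of these turned to 0.06 without mutant library 2 and 0.02 without WT library 2, and the second to -0.03 without mutant library 3. The third turned to 0.12 without mutant library 2, 0.04 without WT library 2 and 0.02 without WT library 3. Isl1Cre/+ differed from WT by -0.12 (SE 0.119, 95% interval -0.40 to 0.16, exact permutation p = 0.4), which became -0.24, under the required fold, without WT library 1 and shrank to -0.02 when WT library 2 was left out. The libraries with Y-linked counts had 18.1, 23.7 and 21.3 cpm of this X-linked gene, and the other 6 had 17.1 to 22.7 cpm.

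**Figure D2:**
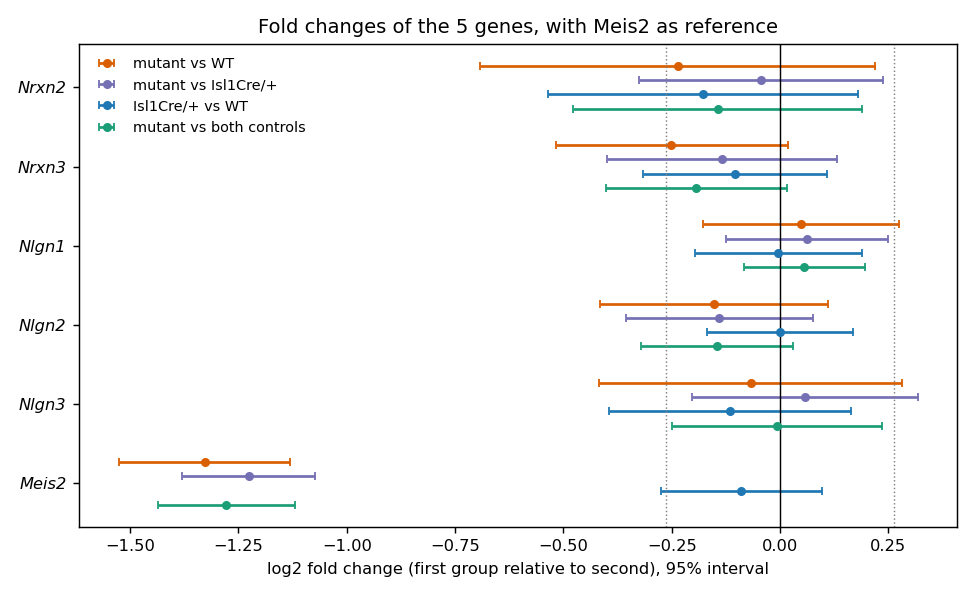
Log2 fold change (horizontal axis) with 95% interval for the 5 genes and Meis2 in 4 comparisons from edgeR, with dotted lines at a fold of 1.2 in either direction. Every interval of the 5 genes includes 0, whereas Meis2 in the mutant lies at -1.33 against WT and -1.23 against Isl1Cre/+.

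Across the 5 genes, 4 values were negative between mutant and WT and the median was -0.15, beside a median of -0.01 and 53.6% negative values over all tested genes. Against Isl1Cre/+ the median was -0.04 with 3 negative values (0.00 and 49.6% over all genes), and against all controls it was -0.14 with 4 negative values (-0.01 and 53.1%). Isl1Cre/+ against WT gave a median of -0.11 with 5 negative values (0.00 and 50.5%), but Nlgn1 and Nlgn2 stood at 0.00 and turned sign in 4 and 8 of 15 alternatives. These comparisons share libraries and are not independent. Groups overlapped for each gene other than Nrxn3 between mutant and WT, and for all 5 in the other comparisons, where 7.68% (mutant and Isl1Cre/+), 5.67% (Isl1Cre/+ and WT) and 0.848% (mutant and all controls) of all tested genes did not overlap. Meis2 itself differed between mutant and WT by -1.33 (SE 0.0844, adjusted p = 0.00779) and between mutant and Isl1Cre/+ by -1.23 (SE 0.0651, adjusted p = 0.00215).

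**Figure D3:**
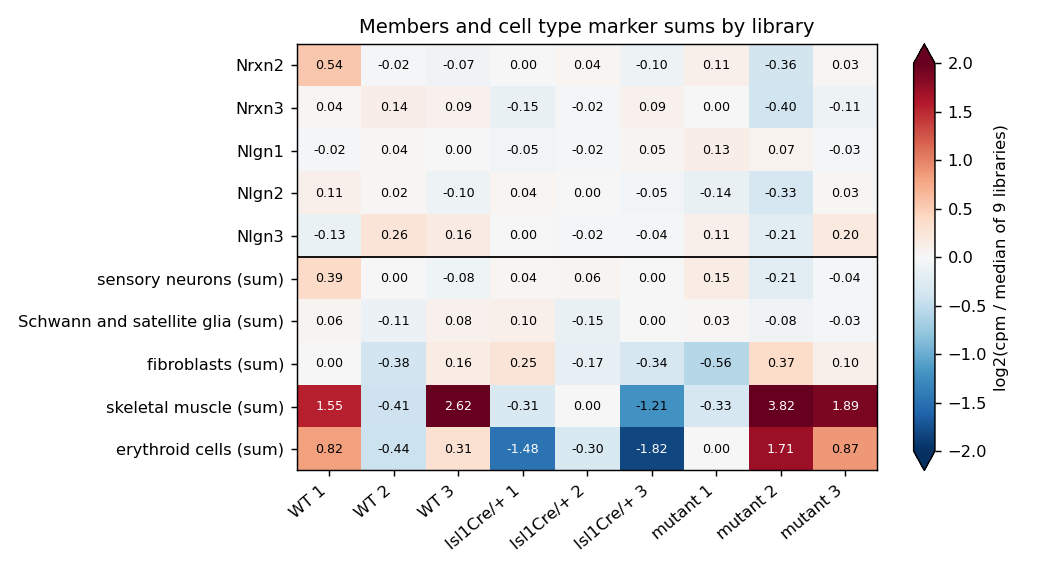
Colour and number give log2 of the level in each library over the median of 9 libraries, for the 5 genes (upper rows) and for summed marker genes of 5 cell types (lower rows). Mutant library 2 stands at -0.36, -0.40, -0.33 and -0.21 for Nrxn2, Nrxn3, Nlgn2 and Nlgn3 and at 3.82 for skeletal muscle, beyond the colour scale.

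The make-up of the libraries moved with some of these values. Mutant library 2, the lowest of 9 for Nrxn2, Nrxn3, Nlgn2 and Nlgn3, also had the lowest summed level of 7 sensory neuron markers, 4630 cpm against 5060 to 7000 cpm in the other libraries. Its 4 skeletal muscle markers summed to 1540 cpm against 47.1 to 668 cpm elsewhere, its 5 erythroid markers to 3960 cpm against 342 to 2210 cpm, and its 4 fibroblast markers to 4740 cpm against 2490 to 4390 cpm. WT library 1, the highest for Nrxn2 and Nlgn2, had the highest sensory neuron sum, 7000 cpm, but it was the lowest WT library for Nrxn3, Nlgn1 and Nlgn3. By group, sensory neuron sums ranged from 5060 to 7000 cpm in WT, 5360 to 5590 cpm in Isl1Cre/+ and 4630 to 5930 cpm in the mutant, and glial sums from 926 to 1060, 899 to 1070 and 948 to 1020 cpm. Muscle sums ranged from 82.2 to 668, 47.1 to 109 and 86.5 to 1540 cpm, erythroid sums from 895 to 2130, 342 to 980 and 1210 to 3960 cpm, and fibroblast sums from 2830 to 4100, 2910 to 4390 and 2490 to 4740 cpm, in the same order. No marker of these lists was at 0 in all libraries. The part of this make-up in the levels of neurexins and neuroligins was not tested. Without WT library 1 and mutant library 2, the differences between mutant and WT were 0.12 for Nrxn2, -0.16 for Nrxn3, 0.04 for Nlgn1, -0.01 for Nlgn2 and -0.06 for Nlgn3, and Nlgn2 against all controls came to -0.03.

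**Figure D4:**
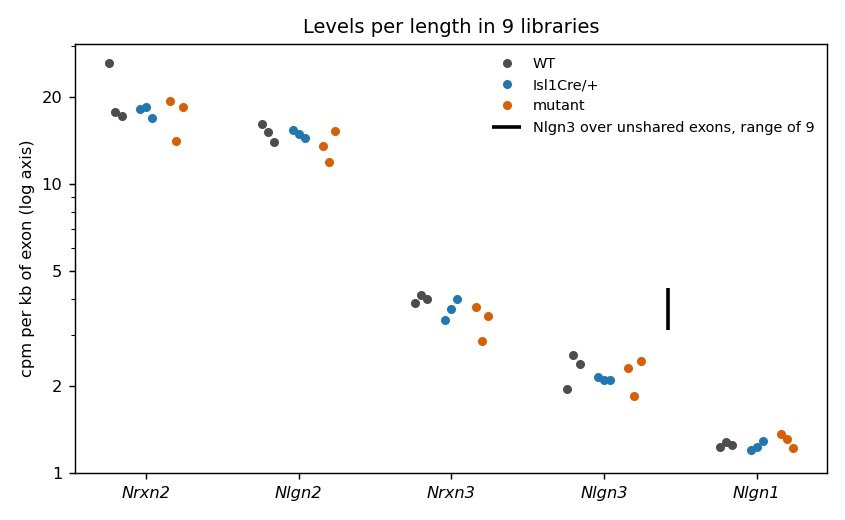
Level per length in every library (vertical log axis, cpm per kb of annotated exon), coloured by genotype, for the 5 genes in order of their mean. The bar beside Nlgn3 is its range over 9 libraries, 3.13 to 4.35 cpm per kb, if only exon bases not shared with Gm21986 are taken as its length, which reaches the level of Nrxn3.

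Levels of different genes can be compared per length of exon. On this scale Nrxn2 was highest, with 14.1 to 26.1 cpm per kb over 9 libraries, followed by Nlgn2 (11.9 to 16.1), Nrxn3 (2.85 to 4.14), Nlgn3 (1.84 to 2.56) and Nlgn1 (1.2 to 1.36). The order was the same in 9 of 9 libraries, also when the longest transcript was taken as the length. By exon length, Nrxn2 exceeded Nlgn2 by a ratio of 1.17 to 1.62 within a library, with ranges over libraries that overlapped, and Nrxn3 exceeded Nlgn3 by a ratio of 1.43 to 1.98. By the longest transcript these ratios were 2.33 to 3.24 and 2.09 to 2.91. If the length of Nlgn3 is limited to the exon bases not shared with Gm21986, however, its mean was 3.75 cpm per kb, and it exceeded Nrxn3 in 6 of 9 libraries, so the order of these neighbours is not settled. By their level per length, Nrxn2 stood at percentile 79.4 of all tested genes, Nlgn2 at 73.7, Nrxn3 at 31.8, Nlgn3 at 18.6 and Nlgn1 at 8.51.

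Nlgn2 thus dominated the neuroligins. It made up 78.7% to 83.5% of the summed cpm per kb of exon of the 3 neuroligins in each library. Nlgn3 held 10.1% to 13.6% of this sum and Nlgn1 6.38% to 8.7%. These shares take all annotated exons of Nlgn3 as its length. Over exon bases not shared with Gm21986, its mean was 3.75 cpm per kb, beside 14.5 for Nlgn2 and 1.26 for Nlgn1. On that length the share of Nlgn3 would be larger. Measured as cpm per kb of exon, Nlgn2 exceeded Nlgn1 by ratios of 13.1, 11.8 and 11.2 for WT libraries. For Isl1Cre/+ libraries these ratios were 12.8, 12.1 and 11.2. Mutant libraries gave 9.94, 9.08 and 12.5. Mutant libraries 1 and 2 had the lowest ratios of 9, and mutant library 3 lay among the controls.

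The genes whose levels ran most alike over the 9 libraries were found by Pearson's r of log2 cpm, as a description. For Nrxn2 they were Aars (r = 0.987) and Mink1 (0.985), for Nrxn3 Hcrtr2 (0.976) and Srpk2 (0.934), for Nlgn1 Pdcd10 (0.985) and Rwdd1 (0.975), and for Nlgn3 Pcgf6 (0.978) and Mrgprd (0.955). Those of Nlgn2 included Ankrd52 (0.958). Each was picked as 1 of the 2 highest among 13200 genes over points that share depth and tissue make-up. Among the 5 genes themselves, Nrxn2 and Nlgn2 were most alike (r = 0.743), Nlgn1 and Nlgn2 least (r = -0.655), and no other member was among the closest genes of any of the 5.

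The partners of these proteins were followed as lists of 75 genes, of which 68 passed the count filter. Between mutant and WT 0 of 68 genes were called by edgeR and 1 had an unadjusted p under 0.05. In the mutant against Isl1Cre/+ 1 was called, lower, which is 1.47% of the 68 beside 1.67% of all tested genes, and 3 had such a p. Between Isl1Cre/+ and WT both counts were 0. The count for mutant against WT became 1 without WT library 2 or 3, or without WT library 1 and mutant library 2 together. Against Isl1Cre/+ it became 3 without mutant library 1 or with the Y-linked level as a covariate, and 0 without mutant library 2, without Isl1Cre/+ library 1 or 3, by DESeq2, with the replicate block or with at least 100 counts in every library. Between Isl1Cre/+ and WT it became 1 without WT library 1. The 1 gene called against all controls was not called in 13 of 19 alternatives. Their median was -0.07, -0.05 and -0.01 in these comparisons, with 52, 49 and 37 negative values of 68. Without mutant library 2 the first of these medians came to -0.01 and the second to -0.02, and that library had the lowest median deviation of the 68 genes, -0.13 against -0.02 to 0.08 in the others.

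**Figure D5:**
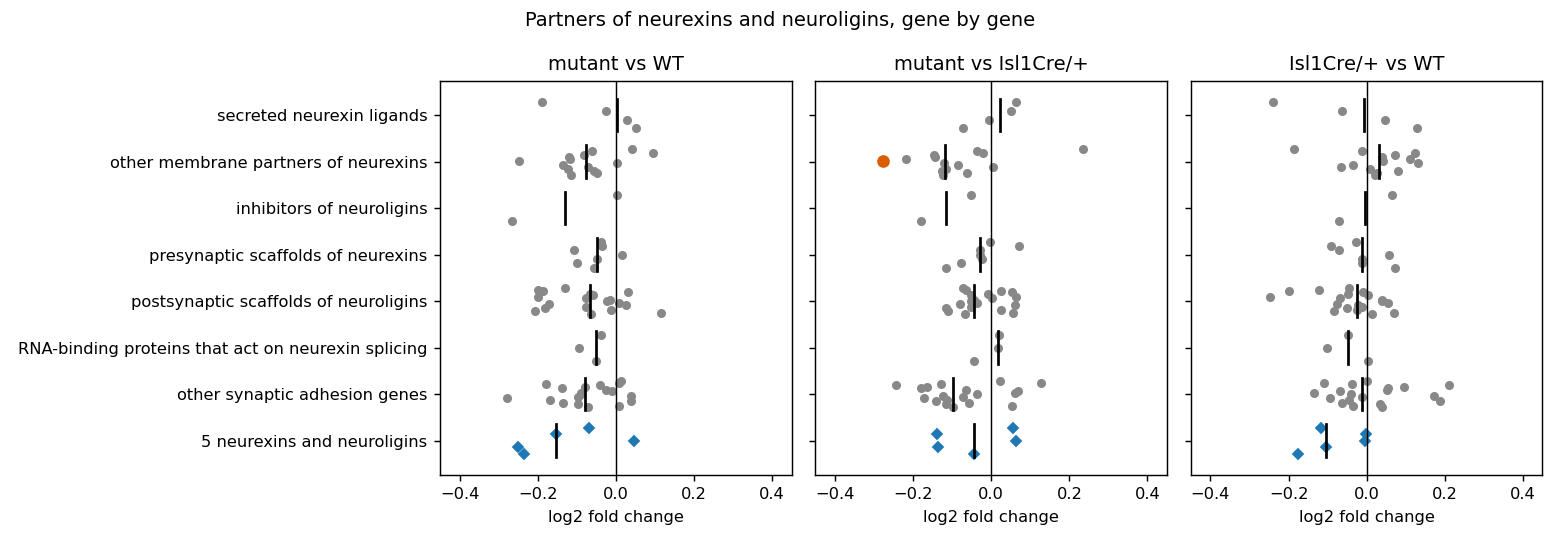
Log2 fold change (horizontal axis) of each tested partner gene by role and of the 5 neurexins and neuroligins (diamonds) in 3 comparisons, with a vertical bar at the median of each list. Grey genes were not called, and the orange gene is Grid1, the only called gene, at -0.28 between mutant and Isl1Cre/+.

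Among secreted ligands of neurexins, 4 of 10 passed the filter, led per length by Cbln2, a cerebellin that bridges neurexins to delta glutamate receptors, at 18.3 cpm per kb. None was called and the medians were 0.00, 0.02 and -0.01 in mutant against WT, mutant against Isl1Cre/+ and Isl1Cre/+ against WT. All 14 other membrane partners of neurexins passed, led by the calsyntenin Clstn1 at 102 cpm per kb. Their medians were -0.08, -0.12 and 0.03, with 11, 12 and 4 negative values.

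Grid1, which encodes the delta glutamate receptor GluD1, was the membrane partner called. It had 236, 213 and 201 counts in mutant libraries, against 269, 267 and 299 in WT and 308, 267 and 299 in Isl1Cre/+, a separation without overlap that 7.68% of all tested genes had against Isl1Cre/+, 2.76% against WT and 0.848% against all controls. Its difference was -0.28 against Isl1Cre/+ (SE 0.0947), -0.25 against WT (SE 0.114) and -0.26 against all controls (SE 0.0815), with an adjusted p of 1 from edgeR each time. The exact permutation test gave p = 0.1 against either control genotype and p = 0.0238 against all controls, the smallest these numbers of libraries allow. The values lie next to the required fold, and the call against Isl1Cre/+ was lost without mutant library 2 (-0.24) or 3 (-0.26), without Isl1Cre/+ library 1 (-0.26) or 3 (-0.25), by DESeq2 (-0.27) and with at least 100 counts asked of every library (-0.26).

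The inhibitors of neuroligins were Mdga1 (11.3 cpm per kb) and Mdga2, which block neurexin binding, and neither was called. Their medians were -0.13, -0.12 and 0.00, and Mdga1 stood at -0.27 (SE 0.172) against WT, with groups that overlapped, and at -0.18 (SE 0.0619) against Isl1Cre/+, under the required fold but with groups that did not overlap. The 7 presynaptic scaffolds that bind neurexins, led by Apba1 at 53.7 cpm per kb, had medians of -0.05, -0.03 and -0.01 and no call. The 19 postsynaptic scaffolds of neuroligins were led by Magi3 at 25.7 cpm per kb and had medians of -0.07, -0.05 and -0.03, again with no call. All of these lists were measured in ganglia, whose neurons place many of these proteins in the spinal cord and skin.

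Neurexin splicing is set in part by the STAR family RNA-binding proteins, of which Khdrbs1 was the most abundant per length at 26.4 cpm per kb. The 3 genes of this family had medians of -0.05, 0.02 and -0.05 and no call. Of 20 other synaptic adhesion genes 19 passed, led by Cadm3 at 62.4 cpm per kb, and none was called, with medians of -0.08, -0.10 and -0.01.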

How the data were processed

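RNA of E18.5 DRGs was compared between WT, Isl1Cre/+ and mutant libraries, 3 each, grouped by their labels. The authors made the deposited counts with poly(A) selection, unique molecular identifiers, STAR 2.7.10 on mm10, removal of duplicates and HTSeq 0.6 (versions from the submitters' processing notes). Which annotation release was counted, and with what strand option, is not given in the sources used here. The authors also deposited log2 fold changes and log2 mean expression, p-values, and scores (moderated statistics and log odds) of their own limma comparisons, and none of these columns was used.

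A gene was tested if any of the 9 libraries held 100 counts or more of it (13200 genes). TMM and the two-sided quasi-likelihood test of edgeR 4.0.16 (R 4.3.3) were used on 1 pair of genotypes at a time, and on mutant against all controls. Exact permutation tests over libraries were added after seeing the data. Benjamini-Hochberg adjustment ran over all genes tested. Depth was 23854607 to 29103444 counts, and within groups the variance over genes was at least 12.6 times counting error, so no libraries were counted as 1. Exons and positions come from GENCODE M21 on GRCm38 (mm10), and promoters from RefSeq, which listed Nrxn3, Nlgn1 and Nlgn2. The longest coding sequence and the union of exons of each gene were used. The procedure was tested on simulated data. Alternatives were other size factors, filters, DESeq2 1.42.0, limma voom (limma 3.58.1), 1 fit for all genotypes, the replicate number as a block, libraries left out, and the Y-linked level as a covariate.

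Named genes are the 5 genes, Meis2 and Isl1 as checks, partner genes called in a pairwise comparison, the most abundant per list and the 2 genes most alike to each member. Members and lists were chosen with earlier results of these data known. Some items are not reported here.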

Additional observations from a re-analysis of the deposited data

How the results depend on the processing

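Of 325 values of the 5 genes under alternatives, 298 kept their direction and side of the criterion, 25 turned in sign and 2 (Nrxn3 without mutant library 1) came to meet it. The count of these genes called was 0 under each alternative run, apart from leaving out single libraries, where it ranged from 0 to 1 for mutant against WT and for mutant against all controls. Without both WT library 1 and mutant library 2, Nrxn2 came to 0.119 against WT and 0.101 against all controls, and Nlgn3 to 0.077 against all controls. Between Isl1Cre/+ and WT, Nlgn1 came to 0.021 and Nlgn2 to 0.029 with library size only, to 0.008 and 0.012 without a filter on low counts, Nlgn2 to 0.001 with limma voom, and Nrxn2 and Nlgn2 to 0.041 and 0.095 with the Y-linked covariate. Nlgn3 against all controls came to 0.004 without a filter. With single libraries left out, Nlgn3 ranged from -0.172 to 0.062 against WT, from -0.027 to 0.175 against Isl1Cre/+ and from -0.091 to 0.116 against all controls, and Nrxn2 from -0.137 to 0.091 against Isl1Cre/+. For Isl1Cre/+ against WT these ranges were -0.279 to 0.017 (Nrxn2), -0.04 to 0.022 (Nlgn1) and -0.048 to 0.028 (Nlgn2). The cause was not tested.

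The replicate block gave Nlgn2 a value of 0.001 between Isl1Cre/+ and WT and -0.278 for Grid1 between mutant and Isl1Cre/+, which then was not called. The numbers do not pair the libraries: of 9 pairs with the same number 4 had correlated deviations over 0.1, with r from -0.605 to 0.424. The order of the 5 genes per length held in 3 of 9 libraries if exon bases shared with Gm21986 are left out, an alternative chosen after seeing the data. The median of the 68 partner genes between Isl1Cre/+ and WT, also examined afterwards, came to 0.019 with library size only, 0.003 without a filter and 0.023 with the Y-linked covariate, and ranged from -0.024 to 0.019 with single libraries left out, and Grid1 in this comparison came to -0.028 with that covariate. The number of all genes called ranged from 1 (adjusted p under 0.05) to 408 (no filter) for mutant against WT, from 1 to 1028 against Isl1Cre/+, from 0 to 845 for Isl1Cre/+ against WT and from 1 to 830 against all controls. Omitting WT library 1 and mutant library 2 together was not run where only 1 of them takes part. With 3 libraries a group, an exact permutation test could not go below p = 0.1, and counting error of 4.59% to 4.72% limits Nlgn1.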
